A study of Mus musculus with 12 samples.

Results

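The genes described here are the growth factor Igf1, its receptor Igf1r and the IGF binding protein genes Igfbp2, Igfbp3, Igfbp4, Igfbp5, Igfbp6 and Igfbp7. They were followed in mouse embryonic humeri as every non-control probe set annotated with exactly 1 gene symbol from that list. This gave 17 of 36701 probe sets and 7 of the 8 genes. Igfbp5 is not analysed here, since its probe set carries several symbols and names no single gene. Of the 17 probe sets, 14 passed a filter on low signal and were tested. They belong to 6 genes, since the only probe set of Igfbp6 did not pass.

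Humeri, the long bones of the upper forelimb, came from mouse embryos at stage E14.5. The 2 groups were Runx2 wild type and Runx2-/- (Runx2-null). The knockout allele, the strain and any feature shared by both groups beyond age and tissue are not given in the sources used here. Each group had 2 RNA pools, labelled as biological replicates and numbered 1 and 2. A wild-type pool held roughly 75 humeri and a Runx2-null pool roughly 60. Hybridisation of all 4 pools to 3 array types, called A, B and C, gave 12 arrays. Runx2 encodes a transcription factor that osteoblasts require, and it also acts in maturing chondrocytes. The comparison addresses which transcripts of the forming bone differ when it is missing. Runx2 itself is not analysed here, and so its level does not serve as a check of the labels.

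IGF1 and IGF2 are secreted hormones that bind the receptor tyrosine kinase IGF1R, which signals through adaptor proteins to the PI3 kinase and MAP kinase branches. IGF binding proteins hold the ligands outside the cell and either limit or prolong their access to the receptor, and secreted proteases release the ligands again. In growing bone, IGF signalling supports chondrocyte growth and hypertrophy and the activity of osteoblasts.

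The values are MAS5 signals, an array intensity that can be compared for 1 probe set between pools but not between probe sets. Differences are Runx2-null minus wild type on log2(signal + pseudocount), which understates changes of dim probe sets. They were tested with limma over every tested probe set. Pools of number 1 and number 2 were scanned on different scanner models with different settings. Both genotypes lie in each scan batch, so each result is given within each number and with the number as a block. Array type C stood apart from A and B. The BioB hybridisation controls (AFFX-BioB-M_at) separated the scan numbers on A, at 164.7 and 248.7 in the number 1 pools against 31.3 and 29.2 in the number 2 pools. On C they did not separate the numbers but the genotypes, at 751.4 and 997.5 in wild type against 148.5 and 158.1 in Runx2-null, so a technical difference there cannot be told apart from genotype. C is left out of the blocked counts below, and its probe sets are given on their own. The number of arrays limits the precision of every value, and p-values describe these pools only. With the block, p-values leave out the difference between numbers and rest mostly on the variance of other probe sets.

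Without the block, 0 of the 14 tested member probe sets passed an adjusted p of 0.05 in limma, and 0 did at an unadjusted p. Of all 23193 tested probe sets, 6 or 0.0259% were called, and 1792 passed at an unadjusted p of 0.05. On A and B alone, still without the block, 4 of 15601 were called and 321 passed at an unadjusted p. Of the 13 member probe sets there, 0 passed at either. With the block on A and B, 3 of 13 member probe sets passed, against 343 of 15601 or 2.20% of all. At an unadjusted p of 0.05 with the block, 7 of the 13 passed, against 2303 of the 15601. Of these 7, 4 measure Igf1. The calls with the block are 2 Igf1 probe sets that were higher in Runx2-null humeri and 1 Igfbp3 probe set that was lower. The background was 0.904% of all probe sets called higher and 1.29% called lower. Below, "rose" and "fell" refer to calls with the block. None of the 3 calls passed in a blocked fit without a variance trend, where 11 of the 15601 probe sets did, nor in one with no filter on low signal.

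The promoters of Igf1 and Igfbp3 are shown because these were the genes with called probe sets and Runx2 is a DNA-binding factor. Each line holds the 250 bases before the listed transcription start, 5′ to 3′ on the gene's strand, from RefSeq on GRCm38.p6. The RUNX core motif was searched as TGTGGT and TGCGGT with the reverse strand forms ACCACA and ACCGCA, and capitals mark a match. The Igf1 window is chr10:87860861-87861110 on the plus strand, and the Igfbp3 window is chr11:7213924-7214173 on the minus strand. Both lie inside the annotated span of their gene, because that span begins at a start farther upstream.
Igf1: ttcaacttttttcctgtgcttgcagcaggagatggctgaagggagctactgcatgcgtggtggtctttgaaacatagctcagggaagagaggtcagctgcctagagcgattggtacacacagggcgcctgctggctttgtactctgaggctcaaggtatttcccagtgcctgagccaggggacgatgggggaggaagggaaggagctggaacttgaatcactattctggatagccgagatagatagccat
Igfbp3: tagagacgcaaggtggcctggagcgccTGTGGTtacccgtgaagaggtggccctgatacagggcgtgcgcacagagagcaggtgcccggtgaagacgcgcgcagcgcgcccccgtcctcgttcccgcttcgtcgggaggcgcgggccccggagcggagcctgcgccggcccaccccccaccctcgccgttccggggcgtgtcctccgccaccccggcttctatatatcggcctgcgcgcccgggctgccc
The Igfbp3 window holds 1 match, TGTGGT, beginning 223 bases before the start, and the Igf1 window holds none of these letters. Of 9 windows listed for the 8 genes, 1 holds a match, while 18.6% of all 32851 windows of this length do. A match is a description of the letters and not a binding site.

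Igf1, the ligand, was measured by 4 probe sets, all of which passed the filter, and all 4 were higher in the Runx2-null pool than in the wild-type pool of both numbers. The gene lies on chromosome 10 at 87858265 to 87937047 (GRCm38.p6). Its brightest probe set, 107959_at on array B, read 1339.3 and 754.5 in wild-type pools 1 and 2, and 2159.9 and 1547.2 in Runx2-null pools 1 and 2. Both Runx2-null pools lay above both wild-type pools, and within each genotype pool 1 was the brighter. The means were 1047 ± 414 and 1854 ± 433 (SD, n = 2). Igf1 rose by this probe set, with a log2 difference of 0.85 (SE 0.16, 95% interval 0.49 to 1.22, adjusted p = 0.0316 with the block), which is 1.81-fold. Without the block the SE was 0.41 and the adjusted p was 0.737, and the difference was 0.445 without wild-type pool 2 and 1.26 without wild-type pool 1.

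The Igf1 probe set 95546_g_at on array A read 152.5 and 28.6 in wild-type pools 1 and 2, and 244.3 and 51.4 in Runx2-null pools 1 and 2. The groups overlapped, because pool 1 of each genotype was far brighter than pool 2. Within each number the Runx2-null pool was the brighter, by 0.66 in number 1 and 0.71 in number 2 on the log2 scale. Igf1 rose by this probe set as well, with a log2 difference of 0.68 (SE 0.16, 95% interval 0.34 to 1.03, adjusted p = 0.0399 blocked and 0.999 unblocked). The same probe set differed between numbers by -2.13, several times its difference between genotypes. Leaving out wild-type pool 2 or Runx2-null pool 1, with no block, turned its log2 difference to -0.40 and -0.37, and leaving out wild-type pool 1 gave 1.77 (adjusted p = 0.0371). Each such fit compares scan batches in unequal numbers.

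The other Igf1 probe sets did not pass. On array A, 95545_at read 221.6 and 143.2 in wild-type pools 1 and 2 and 246.2 and 198.6 in the Runx2-null pools, a log2 difference of 0.30 (SE 0.13, 95% interval 0.03 to 0.57, adjusted p = 0.282 with the block). On array B, 115861_at read 216.9 and 34.5 in wild-type pools 1 and 2 and 325.8 and 53.6 in the Runx2-null pools, a difference of 0.52 (SE 0.21, 95% interval 0.04 to 1.01, adjusted p = 0.301). In both, the groups overlapped and pool 1 was the brighter in each genotype. The median of the 4 Igf1 probe sets was 0.60, against 0.01 for all tested probe sets of A and B. The 4 measure 1 gene in the same pools and are not replicates of the condition.

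**Figure D1:**
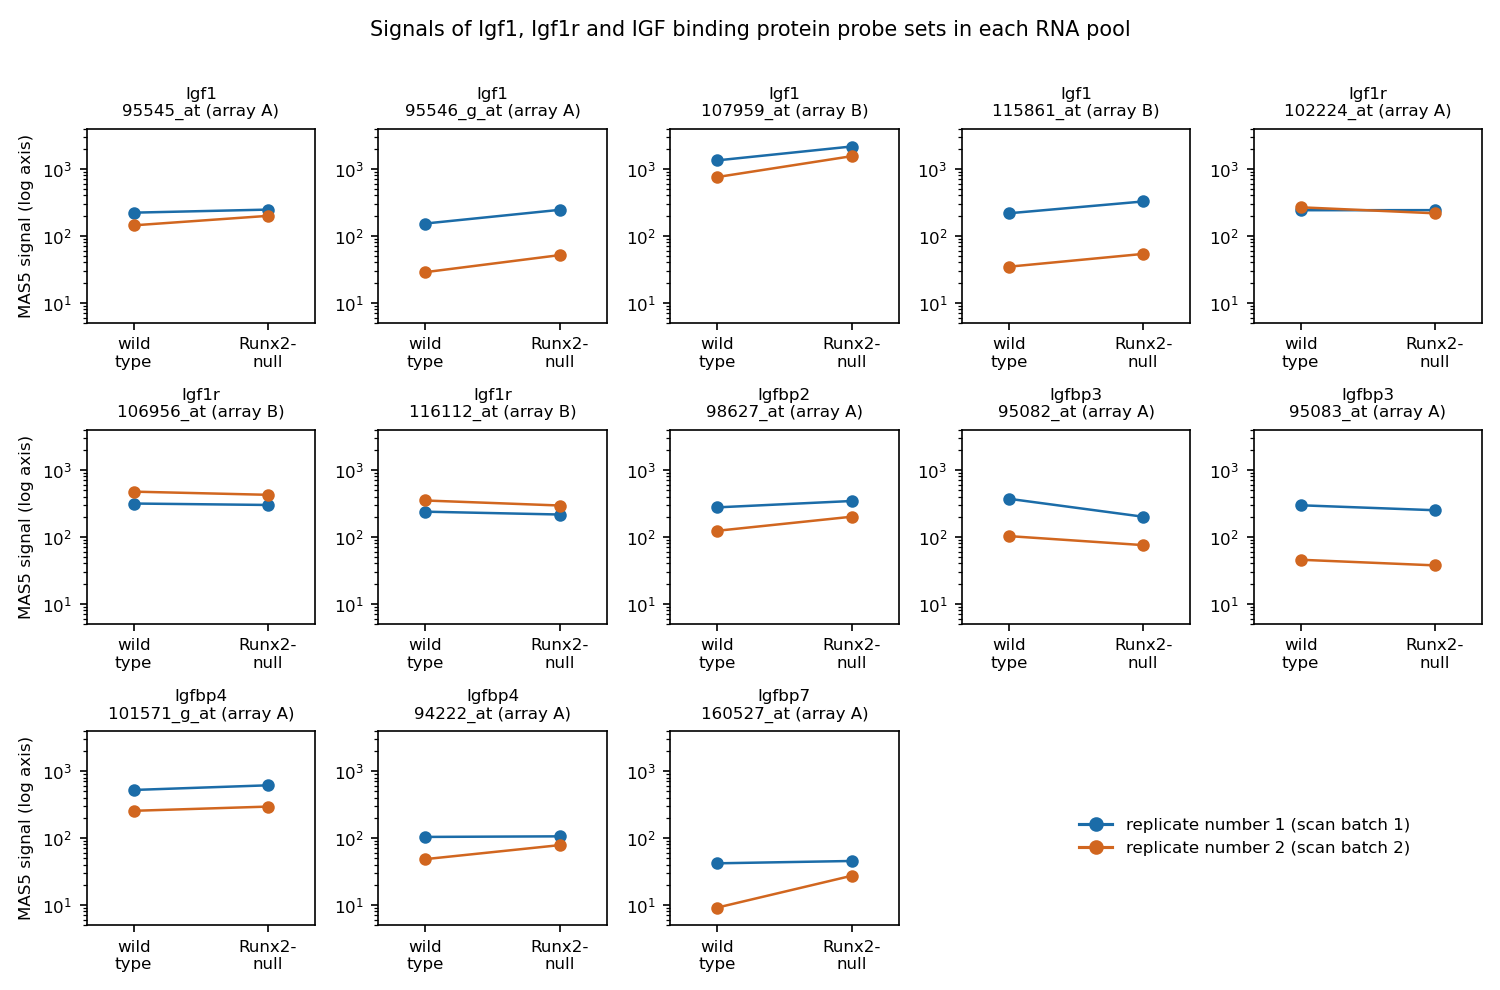
MAS5 signal (log axis) of the 13 member probe sets tested on arrays A and B, with 1 panel per probe set, 1 point per RNA pool and lines joining the wild-type and Runx2-null pool of the same replicate number. The Igf1 lines slope upward in both numbers, the Igfbp3 lines downward, and in most panels the 2 numbers lie farther apart than the 2 ends of a line.

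Igf1r, the receptor that carries the signal of both IGF ligands, was not called at any probe set. It lies on chromosome 7 at 67952257 to 68233668. On array A, 102224_at read 241.0 and 266.5 in wild-type pools 1 and 2, and 241.6 and 216.8 in Runx2-null pools 1 and 2. The number 1 pools were nearly level and the number 2 pools differed by -0.29, so the groups overlapped. The log2 difference was -0.14 (SE 0.12, adjusted p = 0.637 with the block), and its 95% interval ran from -0.40 to 0.11.

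On array B, the Igf1r probe set 106956_at read 315.2 and 474.5 in wild-type pools 1 and 2 and 299.9 and 425.3 in Runx2-null pools 1 and 2. The second B probe set, 116112_at, read 238.1 and 349.8 in wild type and 215.9 and 294.4 in Runx2-null. In both, the Runx2-null pool was the dimmer within each number, and pool 2 was the brighter within each genotype, opposite to the binding proteins. Their log2 differences were -0.11 (SE 0.17, 95% interval -0.50 to 0.28) and -0.19 (SE 0.18, 95% interval -0.60 to 0.23), with adjusted p of 0.831 and 0.702. A difference between genotypes within these intervals was not detectable with 2 pools each.

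On array C, the Igf1r probe set 129046_f_at read 1386.3 and 1155.6 in wild type and 1282.6 and 1186.3 in Runx2-null. The groups overlapped, with a log2 difference of -0.04 (SE 0.16, adjusted p = 0.999 without the block and 0.928 with it).

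Of the binding protein genes, 1 of 6 tested probe sets on A and B fell with the block and 5 did not pass. Igfbp3, whose protein carries most circulating IGF and also acts locally, lies on chromosome 11 at 7206086 to 7215498 and is the gene with the printed TGTGGT. Its probe set 95082_at read 371.0 and 102.7 in wild-type pools 1 and 2, and 200.0 and 75.3 in Runx2-null pools 1 and 2. The groups overlapped, since the Runx2-null pool 1 exceeded the wild-type pool 2, and within each number the Runx2-null pool was the dimmer. Igfbp3 fell by 0.64 on the log2 scale (SE 0.14, 95% interval -0.95 to -0.33, adjusted p = 0.0322 blocked and 0.999 unblocked), which is 1.56-fold lower. Without a block, leaving out wild-type pool 1 turned the difference to 0.25 and leaving out Runx2-null pool 2 turned it to 0.02.

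The second Igfbp3 probe set, 95083_at, read 296.7 and 45.5 in wild-type pools 1 and 2 and 250.2 and 37.5 in the Runx2-null pools. It was lower in Runx2-null within both numbers, by the same -0.24 in each, and did not pass (SE 0.15, 95% interval -0.55 to 0.07, adjusted p = 0.483 with the block). The 2 numbers differed by -2.53 at this probe set, the widest gap between numbers among the members. In wild type, pool 1 was 6.52 times as bright as pool 2.

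Igfbp2, which binds both IGF ligands and lies on chromosome 1 at 72824480 to 72852474, was the binding protein gene closest to a call in the other direction. Its probe set 98627_at read 276.1 and 123.3 in wild-type pools 1 and 2, and 343.7 and 200.0 in Runx2-null pools 1 and 2. The Runx2-null pool was the brighter in both numbers, and the groups overlapped. The log2 difference was 0.49 (SE 0.13, 95% interval 0.22 to 0.76), with an adjusted p of 0.0618 with the block, which does not pass. On array C, its probe set 169248_r_at was too dim to be tested, at 15.6 and 18.6 in wild type and 20.5 and 27.7 in Runx2-null. Igfbp5, the neighbouring gene on chromosome 1 at 72858065 to 72874865, lies on the minus strand and has no value here. The spans of Igfbp2 and Igfbp5 are 5590 bases apart.

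Igfbp4, which restrains IGF action and is cut by the protease PAPP-A, lies on chromosome 11 at 99040005 to 99052655. Its probe set 101571_g_at read 522.0 and 254.7 in wild-type pools 1 and 2 and 612.9 and 294.6 in Runx2-null pools 1 and 2. The probe set 94222_at read 103.7 and 48.3 in wild type and 105.8 and 78.2 in Runx2-null. In both, the Runx2-null pool was the brighter within each number and the groups overlapped. The log2 differences were 0.22 (SE 0.10, adjusted p = 0.331 with the block) and 0.33 (SE 0.18, adjusted p = 0.439). The third probe set, 101570_at, stayed between 2.9 and 10.9 in the 4 pools and was not tested.

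Igfbp7, whose protein binds IGF weakly and is also a matrix protein, lies on chromosome 5 at 77349240 to 77408045. Its probe set 160527_at read 41.8 and 9.1 in wild-type pools 1 and 2 and 45.3 and 27.2 in Runx2-null pools 1 and 2. The number 1 pools differed by 0.10 and the number 2 pools by 1.09 on the log2 scale, so its difference of 0.59 (SE 0.31, 95% interval -0.07 to 1.25, adjusted p = 0.395 with the block) lies mostly in number 2, where the wild-type pool was dim. Igfbp6, which prefers IGF2 as its ligand, lies on chromosome 15 at 102144186 to 102149512. Its probe set 103904_at read 20.1 and 7.9 in wild type and 20.9 and 9.3 in Runx2-null, below the filter. Pool 1 was the brighter in each genotype for Igfbp6, as for the other binding proteins on array A.

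**Figure D2:**
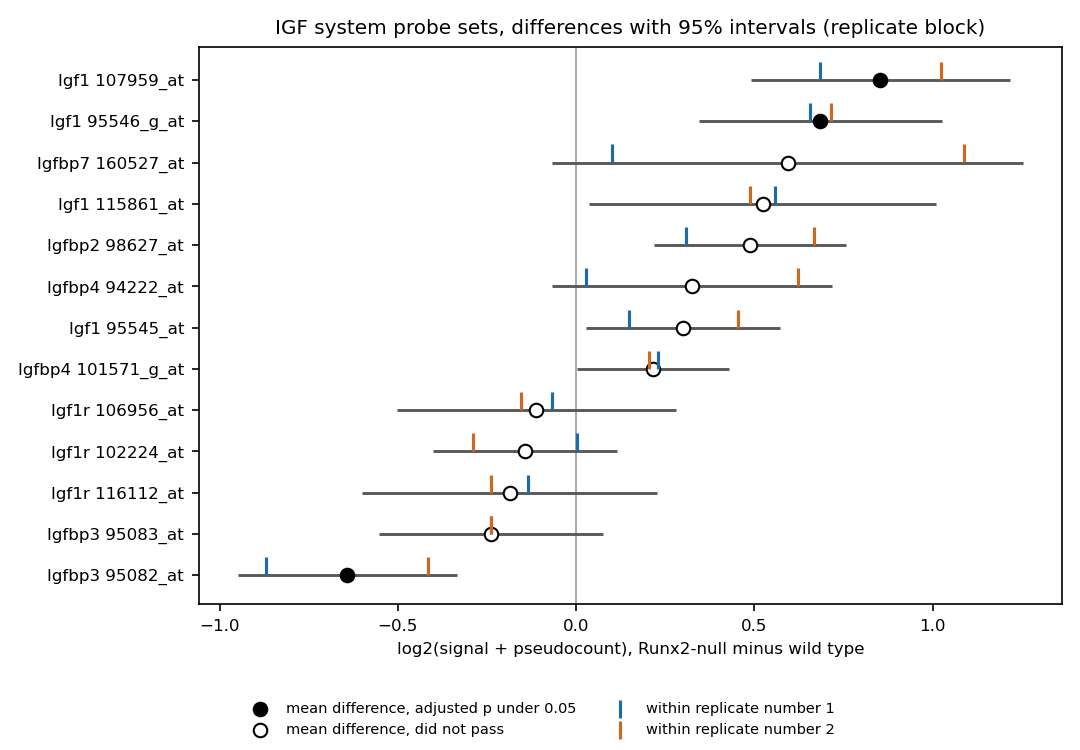
Log2 difference, Runx2-null minus wild type, of the 13 member probe sets tested on arrays A and B with the replicate number as a block. Bars are 95% intervals and small marks show the difference within each number. The 4 Igf1 probe sets lie between 0.30 and 0.85, the 3 Igf1r probe sets between -0.19 and -0.11, and the 2 Igfbp3 probe sets at -0.64 and -0.24.

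Across the 13 member probe sets, 8 were higher in Runx2-null within both numbers, 4 were lower within both, and 1, the Igf1r probe set 102224_at, went opposite ways. The 13 belong to 6 genes and are not separate genes, and 4 of the 8 higher ones measure Igf1. Of all tested probe sets on A and B, 32.1% were higher within both numbers and 28.0% lower within both. The members' differences ran from -0.64 to 0.85 with a median of 0.30. The Igf1 probe set 107959_at was the 1 member of 13 with groups that did not overlap, against 25.3% of all tested probe sets.

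The members differed more between replicate numbers than between genotypes. The numbers mark both the biological replicates and the scan batches, which cannot be told apart. At 11 of the 13 probe sets the difference between numbers exceeded that between genotypes, against 67.9% of all tested probe sets. The median absolute difference between numbers was 0.94 for the members and 0.35 for all tested probe sets. The members were lower in number 2 at 11 of 13 probe sets, against 52.2% of all. The 2 exceptions were the Igf1r probe sets of array B, which were higher there by 0.53 and 0.48. The 5 skeletal muscle markers (Myog, Acta1, Ckm, Tnnt3 and Myh3) followed the number too, with summed signals of 1694.9 and 1921.3 in the number 1 pools against 408.5 and 282.4 in the number 2 pools. None of the 5 was listed at 0 or called between genotypes, and their part in the members' values was not tested.

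**Figure D3:**
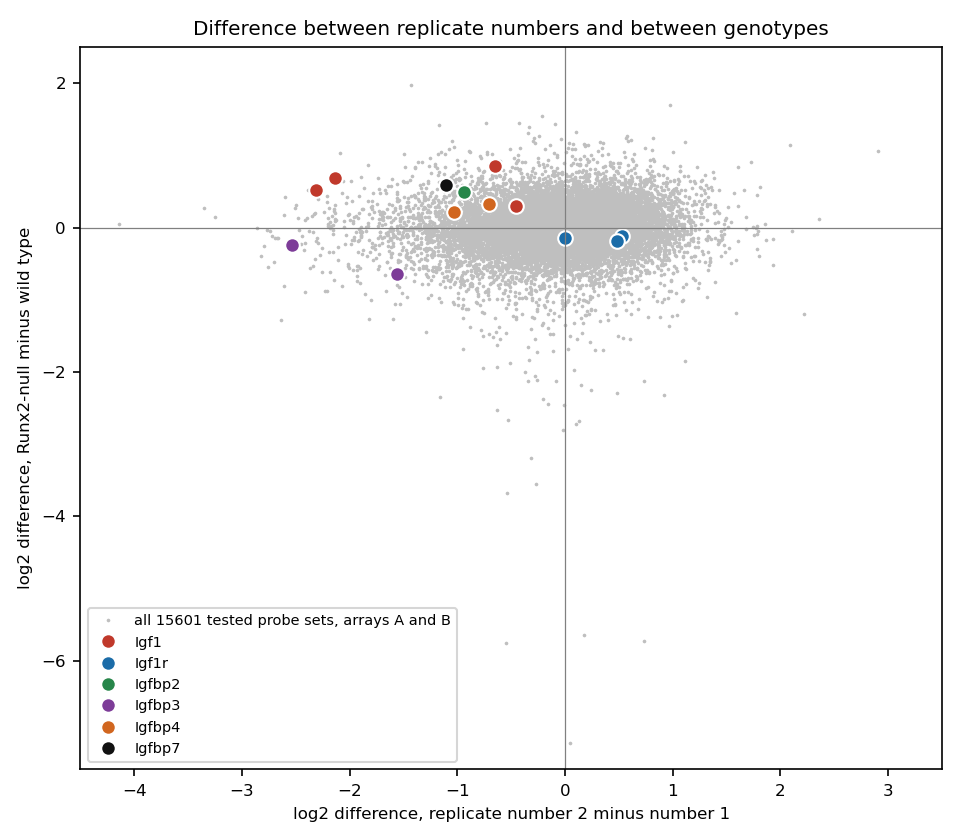
Log2 difference between genotypes (y axis, Runx2-null minus wild type) against log2 difference between replicate numbers (x axis, number 2 minus number 1) for each tested probe set of arrays A and B in grey, with member probe sets in colour. The members spread from -2.53 to 0.53 along x and from -0.64 to 0.85 along y.

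Markers of some other cell types also differed between the genotypes. With the block, 0 of 3 tested endothelial, 0 of 2 macrophage and 0 of 2 erythroid markers were called. No epidermis marker was bright enough to be tested. Of 6 osteoblast markers 5 fell with the block, and Col1a1 did not pass. The log2 differences were -7.13 for Ibsp, -3.55 for Alpl, -3.19 for Dmp1, -2.12 for Pth1r, -0.49 for Col1a2 and -0.26 for Col1a1. Summed signals, mostly from Col1a1 and Col1a2, were 13427.4 and 11916.7 in wild-type pools 1 and 2 and 9285.9 and 6272.8 in Runx2-null. Of the 3 hypertrophic chondrocyte markers, Mmp13 and Ihh fell and the Col10a1 probe set used was too dim to be tested. The summed signals of the 3 went from 584.3 and 992 to 52.6 and 71.2. Of 6 chondrocyte markers, Hapln1 fell, at a log2 difference of -0.71 (adjusted p = 0.00119), 4 did not pass and Col2a1 was too dim to be tested. All 3 osteoclast markers fell, from 1745.6 and 1855 to 234.7 and 375.3. Of the 3 tendon and perichondrium markers measured, Dcn and Ogn rose and Scx did not pass, with sums of 1475 and 1210.4 against 2005.8 and 1994.4. No marker of these lists was listed at 0 in any pool. In pooled tissue, fewer cells of a type and less RNA per cell cannot be told apart, and the part of these markers in the Igf1 and Igfbp3 values was not tested.

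For each called probe set, the nearest genes in pattern were taken as those with the smallest Euclidean distance between centred log2 values over the 4 arrays. For Igf1 107959_at they were Kcnip1 (distance 0.130), Phf20l1 (0.151) and Rhoj (0.158), among 7066 candidates on array B. For Igf1 95546_g_at they were Ebf3 (0.304), Foxp1 (0.367) and Celf1 (0.408), among 7005 candidates on array A. For Igfbp3 95082_at they were Myo10 (0.143), Acvr1b (0.260) and Utrn (0.331). None of the 9 genes was itself called, with adjusted p from 0.0866 to 0.662 with the block. The distance includes the difference between numbers. That was -2.13 at Igf1 95546_g_at and -1.56 at Igfbp3 95082_at, against 0.68 and -0.64 between genotypes. At Igf1 107959_at it was -0.65 against 0.85.

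The remaining genes of the pathway were taken from a list of 47, of which 39 had a probe set. On A and B, 56 probe sets of 34 genes were tested. With the block, 3 rose, 2 fell and 51 did not pass, against the 0.904% and 1.29% of all probe sets called in these directions. Without it, 0 passed in limma. At an unadjusted p of 0.05 without the block, 3 of 66 passed on A, B and C, against 1792 of all 23193 tested probe sets. Limited to A and B, 2 of 56 did, against 321 of 15601. None of the 5 blocked calls passed without a variance trend or with no filter, and those of Igf2 and Socs2 were also lost with quantile normalization. That of Grb14 was also lost with a stricter filter (adjusted p = 0.0543) and with adjustment within each array type (0.115). The median difference was 0.00. Of the 56, 18 were higher within both numbers and 16 were lower within both, against 32.1% and 28.0% of all tested probe sets.

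Among ligands and receptors, Igf2, the main IGF of embryonic growth, rose with the block as deposited. Its probe set 98623_g_at read 4534.9 and 3409.7 in wild-type pools 1 and 2, and 5696.0 and 4137.8 in Runx2-null pools 1 and 2. The groups overlapped and the Runx2-null pool was the brighter in each number, with a log2 difference of 0.30 (SE 0.07, adjusted p = 0.0345 blocked and 0.965 unblocked). With quantile normalization the difference was 0.084 and did not pass with the block, and leaving out 1 pool without the block gave 0.098 without wild-type pool 2, 0.073 without Runx2-null pool 1, 0.509 without wild-type pool 1 and 0.534 without Runx2-null pool 2. The other Igf2 probe set, 98622_at, stayed between 2.0 and 4.5 and was not tested. Igf2r, which removes IGF2 by taking it to lysosomes, read 508.4 and 805.0 in wild type and 546.2 and 781.9 in Runx2-null at 95117_at. It was close to level, at 0.03 (SE 0.09, adjusted p = 0.920). The 3 tested probe sets of Insr, the insulin receptor, disagreed in direction, at -0.21, 0.35 and 0.29, and none passed (adjusted p = 0.686, 0.421 and 0.566).

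The growth hormone axis, which drives Igf1 transcription in liver and acts on cartilage, held calls in both directions. Ghr, the growth hormone receptor, read 128.4 and 52.1 in wild-type pools 1 and 2 and 215.1 and 92.4 in the Runx2-null pools at 99107_at. Within each number the Runx2-null pool was the brighter although the groups overlapped, and Ghr rose, with a log2 difference of 0.73 (SE 0.15, adjusted p = 0.0182 with the block). Without a block, its difference was 0.13 and 0.15 without wild-type pool 2 and Runx2-null pool 1, and 1.33 and 1.31 without wild-type pool 1 and Runx2-null pool 2. Its second probe set, 99108_s_at, did not pass, at 0.37 (adjusted p = 0.299). Socs2, which dampens growth hormone receptor signalling, read 136.7 and 106.1 in wild type and 96.4 and 41.6 in Runx2-null at 99475_at. Both Runx2-null pools lay below both wild-type pools, and Socs2 fell, with a log2 difference of -0.85 (SE 0.19, adjusted p = 0.0318). Without a block, its difference was -0.30 without Runx2-null pool 2 and -1.39 without Runx2-null pool 1. Stat5a, a transcription factor activated by this receptor, did not pass at 100422_i_at, with 0.47 (SE 0.15, adjusted p = 0.149). Its second tested probe set, 100423_f_at, was close to level, at 0.04 (adjusted p = 0.943 with the block).

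Htra1, a secreted serine protease that cuts IGF binding proteins, rose at 96920_at. It read 382.3 and 432.4 in wild-type pools 1 and 2 and 574.4 and 575.1 in Runx2-null pools 1 and 2. The groups did not overlap and the numbers differed little, with a log2 difference of 0.49 (SE 0.10, adjusted p = 0.0175 with the block). The balanced design fixes the same difference without the block, and no call was made there (adjusted p = 0.646). A second Htra1 probe set, 168121_i_at on array C, lay the other way without overlap, at 3273.2 and 3178.5 in wild type and 2389.2 and 2546.6 in Runx2-null. Its log2 difference was -0.39 (SE 0.14, adjusted p = 0.553 unblocked and 0.257 blocked), so the direction for Htra1 rests on array A.

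Grb14, an adaptor that inhibits insulin receptor signalling, fell most among the pathway genes tested on A and B. Its probe set 114784_at on array B read 92.8 and 157.2 in wild-type pools 1 and 2, and 24.9 and 4.8 in the Runx2-null pools. Both Runx2-null pools lay well below both wild-type pools. Grb14 fell by 2.37 on the log2 scale (SE 0.42, 95% interval -3.32 to -1.42, adjusted p = 0.0241 blocked and 0.188 unblocked), with the lowest unblocked p of the list. The second Runx2-null pool was below the pseudocount of 13, so the size depends on that setting, from -2.76 at a smaller pseudocount to -1.90 at a larger one. The second tested Grb14 probe set, 168409_r_at on array C, read 2583.8 and 3411.1 in wild type and 2483.0 and 2261.5 in Runx2-null. Both Runx2-null pools were lower there, at -0.06 within number 1 and -0.59 within number 2. The log2 difference was -0.32 (SE 0.18, adjusted p = 0.846 unblocked and 0.431 blocked), which did not pass. On C a technical difference cannot be told apart from genotype. Irs2, an adaptor that links the receptors to PI3 kinase, read 88.5 and 50.8 in wild type and 42.3 and 27.8 in Runx2-null at 92205_at. Its groups did not overlap, and its difference of -0.84 (SE 0.21, adjusted p = 0.0531) did not pass.

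No probe set of the PI3 kinase and Akt branch passed, of 27 tested. Eif4ebp1, a translation repressor inactivated by growth factor signals, came nearest, at 74.3 and 78.7 in wild-type pools 1 and 2 and 46.1 and 47.4 in the Runx2-null pools. Its groups did not overlap, and the log2 difference was -0.64 (SE 0.19, adjusted p = 0.109 with the block). Pik3r1, a regulatory subunit of PI3 kinase, read 323.3 and 306.9 in wild type and 491.7 and 403.9 in Runx2-null at 113019_at. The log2 difference was 0.48 (adjusted p = 0.239 with the block). Its other tested probe sets gave 0.55 at 96592_at, 0.25 at 163548_at and, on array C, -0.04 at 129853_at, and none passed. The MAP kinase branch had 1 tested probe set and the Igf2 mRNA-binding proteins had 3, and none of these passed.

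**Figure D4:**
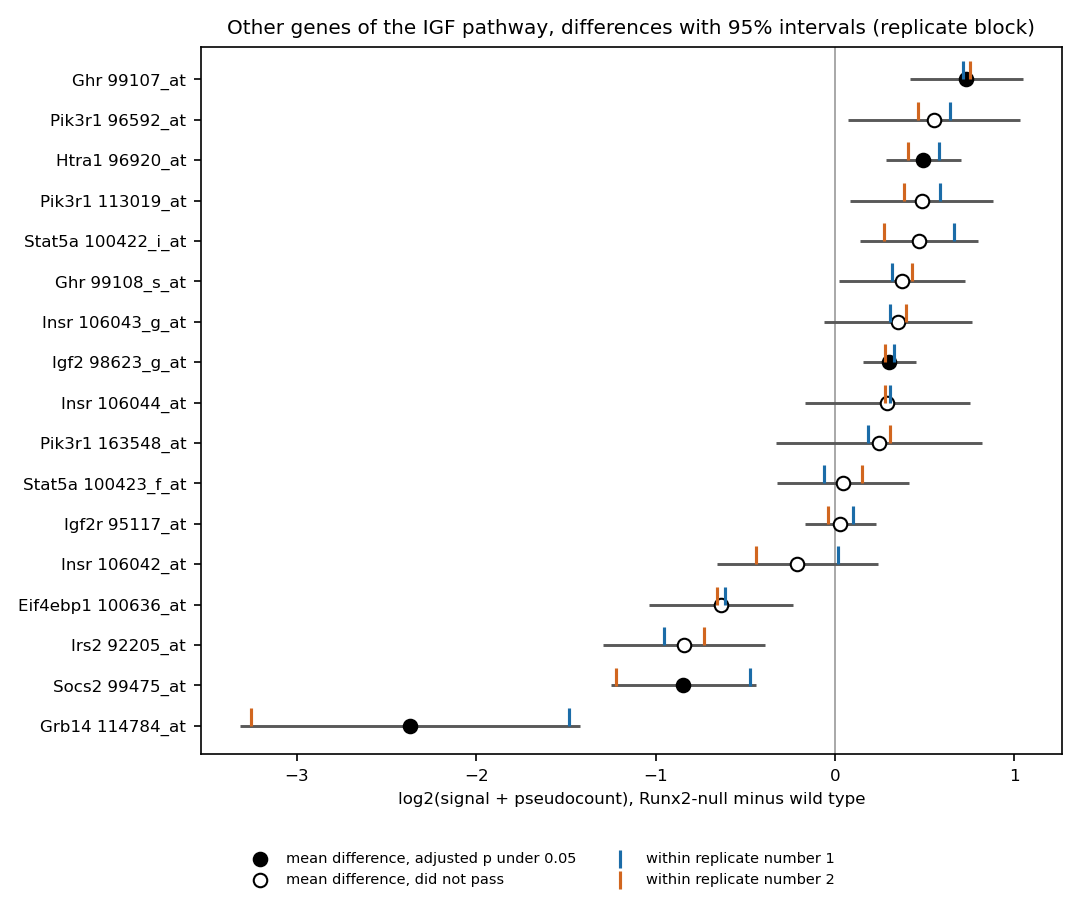
Log2 difference, Runx2-null minus wild type, with 95% intervals, for the named IGF pathway genes that are not members, fitted with the replicate number as a block on arrays A and B. Grb14 lies at -2.37, Socs2 at -0.85, and Igf2, Htra1 and Ghr at 0.30, 0.49 and 0.73.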

How the data were processed

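RNA of wild-type and Runx2-null E14.5 humeri was measured in 2 pools per genotype. The authors deposited MAS5 signals (intensity, 1 value per probe set and array), per the submitters' processing notes, and the MAS5 version is not given. The 2% trimmed mean of each deposited array was 100.0 to 100.1, so no further scaling was applied. The authors' values had medians of 37.5 to 60.4.

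Gene names came from the platform annotation. Of 36701 non-control probe sets, 29131 had 1 symbol, 724 several and 6846 none listed. Of the first, 29044 were found in the RefSeq table of GRCm38.p6. The 198 control probe sets were left out of tests. A pseudocount near the 20th percentile (7 for A, 13 for B, 10 for C) was added before log2. Testing required a signal over the array's 40th percentile on 2 or more of 4 arrays (7745 probe sets on A, 7856 on B, 7592 on C).

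Genotypes were compared with limma 3.58.1 (R 4.3.3), using lmFit and trended eBayes separately for each array type. Tests were two-sided, and p-values were adjusted over all tested probe sets by Benjamini-Hochberg. The main design had no block. The replicate number as a block, on all arrays and on A and B, was its stated alternative, and the further settings with the block were chosen after seeing the data. Scan settings in the array files equalled the number: 3 µm pixels and 2 scans for number 1, 2.5 µm and 1 scan for number 2. Deviations of same-numbered arrays correlated across probe sets at 0.764 on A, 0.595 on B and 0.056 on C. The sample titles call the number a biological replicate, and what else it marks is not in the labels. With the block, the variance prior carried 12.7 (A) and 7.74 (B) degrees of freedom, so SE and p rest mostly on other probe sets. The fit was also tested on simulated data. Their noise followed a trend over the mean signal, so that test cannot judge the use of a variance trend. Members, lists, markers and the rule for named genes (all members; pathway genes that passed, the 4 with the lowest blocked p otherwise, and Igf2, Igf2r and Insr) were chosen with earlier results of these data known.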

Additional observations from a re-analysis of the deposited data

How the results depend on the processing

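The replicate number as a block changed the calls. Over all 3 array types it raised the calls among all probe sets from 6 to 505, among members from 0 to 3 and among other pathway probe sets from 0 to 5; on A and B alone the counts were 343, 3 and 5. The blocked alternatives that follow were chosen after seeing the data and ran on A and B. Members called were 2 with quantile normalization and 3 with a lower pseudocount, a higher pseudocount, the 60th percentile filter or adjustment within each array type; they were 0 with no filter and 0 without a variance trend. For the pathway the same settings gave 3, 5, 6, 4, 5, 0 and 0, and for all probe sets 295, 398, 417, 337, 439, 119 and 11. The Igf1 probe set 107959_at lost its call with no filter (adjusted p = 0.129), within-type adjustment (0.144) and no trend (0.297). Igf1 95546_g_at lost it with quantile normalization (0.0625), no filter (0.140) and no trend (0.256), and Igfbp3 95082_at with no filter (0.126) and no trend (0.339). Igfbp2 98627_at gained one with within-type adjustment (0.0359). Without the block, all probe sets called were 2 with no trend, 11 with quantile normalization, a higher pseudocount or the 60th percentile filter, and 99 with adjustment within each array type; members and pathway stayed at 0. Leaving out 1 pool, without the block, gave 5 to 22 calls among all, 0 to 1 among members and 0 to 2 among the pathway. Each such fit unbalances the scan batches, assumes that the lone pool varies like the others, and cannot hold the block, which would leave no residual degrees of freedom. In these fits the log2 difference changed sign in at least 1 case for 14 of the 27 named probe sets, with ranges of -0.003 to 0.60 for Igf1 95545_at, -0.40 to 1.77 for Igf1 95546_g_at, -0.65 to 1.70 for Igf1 115861_at, -0.40 to 0.17 for Igf1r 106956_at, -0.45 to 0.079 for Igf1r 116112_at, -0.17 to 0.093 for Igf1r 129046_f_at, -0.071 to 1.05 for Igfbp2 98627_at, -1.53 to 0.25 for Igfbp3 95082_at, -1.50 to 1.03 for Igfbp3 95083_at, -0.30 to 0.74 for Igfbp4 101571_g_at, -0.17 to 0.83 for Igfbp4 94222_at, -0.21 to 1.39 for Igfbp7 160527_at, -0.30 to 0.36 for Igf2r 95117_at, and -0.53 to 0.11 for Insr 106042_at. Otherwise a sign differed only within a single number, for Igf1r 102224_at (0.003 in number 1), Igf1r 129046_f_at (0.038 in number 2), Igf2r 95117_at (-0.042 in number 2) and Insr 106042_at (0.019 in number 1). The cause of the differences between settings was not tested. Probe sets near background, such as those of Igfbp6 and Igfbp7, limit what the arrays can show.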
